A study of Mus musculus with 8 samples.

Results

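The cytosolic ribosomal protein genes encode the proteins that, together with ribosomal RNA, form the large and the small subunit of the cytosolic ribosome. They were taken by gene symbol, as every annotated probe named Rpl or Rps with a number, or named Rplp0, Rplp1, Rplp2 or Rpsa, without the ribosomal S6 kinases. This rule found 57 genes with 71 probes among the 8576 genes named on the array, 35 of the large subunit and 22 of the small subunit. A total of 56 genes were kept because both arrays of 1 or more groups had a detection p under 0.01, and the brightest kept probe stood for the gene. Rpl14, a large-subunit protein, was not kept, since it was detected on 2 of the 8 arrays and its normalised log2 level lay between 5.38 and 6.72. Rplp2, Rpsa and Rpl11 had no probe named here and were not analysed here.

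The cells were cultured mouse cells profiled on 8 Illumina BeadChips, with 2 arrays for each of 4 groups. The miPS-NSC group held neural stem cells (NSCs), which the name, with the word reprogramming in the title of the series, ties to induced pluripotent stem (iPS) cells, and it carried the genotype OG2+/- and the number 8 after the letter P in its sample name. The pNSC group held parthenogenetic NSCs, the kind that derives from an egg without a sperm, with the genotype OG2+/- and the number 18. The fNSC group held NSCs titled female, with the genotype OG2ROSA and the number 27, and MEF stands for mouse embryonic fibroblasts, labelled OG2+/- although the signal table names OG2ROSA1 for them. OG2 is the name of a green fluorescent reporter driven by regulatory sequence of the pluripotency gene Pou5f1. All cells are labelled female, and NSC medium is the medium given for every group. The miPS-NSC group is called pips-NSC in its sample names and in the signal table. The labels explain neither name, nor the P numbers or a suffix in the title of the second array of each group. The genotype sets fNSC apart from the other NSC groups and the P number differs in each, so neither can be told apart from cell type. No label says whether the paired arrays are separate cultures, and p-values therefore reflect array-to-array spread alone, perhaps a technical one.

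A ribosome needs its proteins in matched amounts, and cells produce them in step with ribosomal RNA. The messenger RNAs of these genes start with a run of pyrimidines, through which the kinase mTORC1 adjusts their translation, and MYC is known to raise their transcription. Certain ribosomal proteins, such as RPL5 and RPL11, are known to stabilise p53 by binding to MDM2. Neural stem cells are known to depend on a high output of new ribosomes while they divide.

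The number of probes above detection was 10553 to 10902 per array, out of 25697. Of 8 neural stem cell markers named on the array, 7 were detected on both arrays of each NSC group, with Prom1 below detection in all of them. In MEF, 3 of the 8 were detected and Fabp7, Hes5, Olig2, Prom1 and Sox2 were on neither array. The summed linear level of the list was 8801 to 9779 in miPS-NSC, 18840 to 19900 in pNSC, 15920 to 20110 in fNSC and 14820 to 16800 in MEF. The MEF sum was mostly Vim, at a mean log2 level of 13.8 there, against 9.44 for Nes and 9.29 for Notch1. It is thus no measure of neural stem cell identity. The 4 named fibroblast markers had a summed linear level of 1472 to 1711 in miPS-NSC, 163 to 212.3 in pNSC and 618.5 to 645.5 in fNSC, against 40240 to 41180 in MEF, where all 4 were detected. Among the NSC groups, Col1a2 was the fibroblast marker on neither array in each of them. Thy1 and Twist1 were detected on both miPS-NSC arrays, at mean log2 levels of 9.74 and 9.32. Twist1 was also detected on both fNSC arrays, at 8.9, and S100a4 on 1 pNSC array. Thy1 was on neither pNSC nor fNSC arrays.

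Ribosomal protein genes were among the brightest on every array. Their mean normalised log2 level lay between 7.87 and 16.01 with a median of 13.83, against a median of 9.16 over the 8107 genes tested. Between 19 and 23 of the 100 brightest probes of an array belonged to them, and 55 of the 56 were detected on all 8 arrays. The exception was Rps15a, which was detected on all NSC arrays and on no MEF array. Their summed share of the linear signal of all genes was 7.02% and 7.19% on the miPS-NSC arrays, 6.04% and 6.19% on the pNSC arrays, 6.94% and 6.84% on the fNSC arrays, and 6.84% on each MEF array. Both pNSC arrays thus had the lowest share of the 8 arrays. In bulk RNA of this kind, fewer cells of a type and less RNA per cell cannot be told apart.

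**Figure D1:**
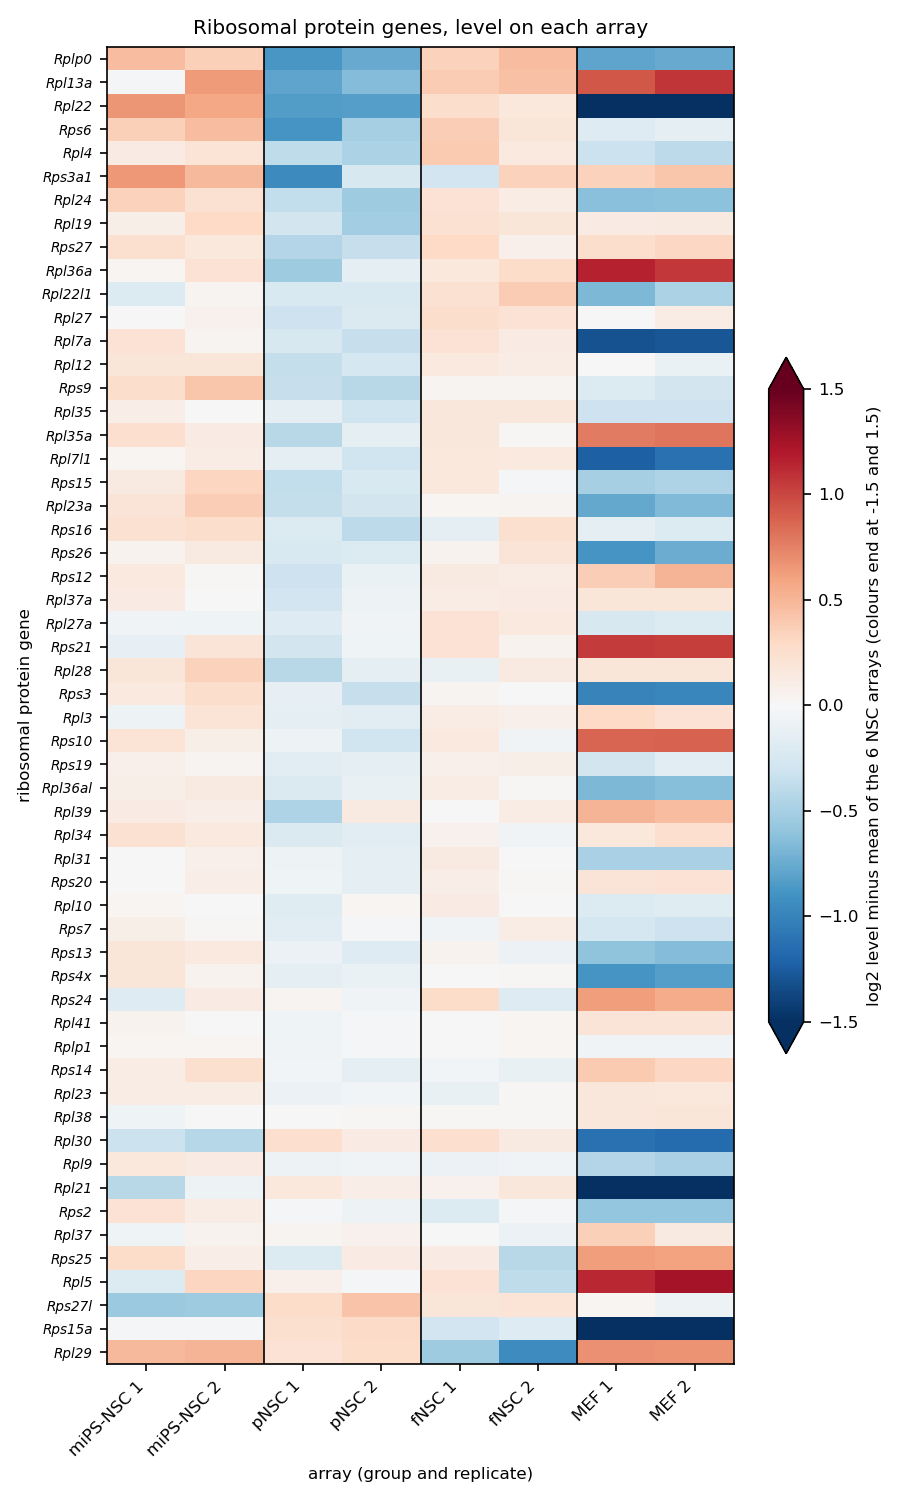
Normalised log2 level of each of the 56 ribosomal protein genes on each of the 8 arrays, minus the mean of that gene over the 6 NSC arrays, with genes ordered by the difference between pNSC and fNSC. The pNSC columns are blue over most of their length, with 35 genes lowest there among the NSC arrays, while Rpl29 at the bottom is blue in the fNSC columns.

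Of the ribosomal protein genes, 23 were lower in pNSC than in fNSC and 2 were higher. In this comparison 45% of all 8107 genes passed the test (limma, Benjamini-Hochberg adjusted p under 0.05), 22.7% as higher and 22.3% as lower. The 23 lower genes made up 41.1% of the 56 ribosomal protein genes, and 31 did not pass. Their median log2 difference was -0.25, against -0.009 over all genes, and 47 of the 56 differences were negative. At 2-fold or more 3 were lower and 0 were higher, beside 4.87% and 6.57% of all genes, and at an unadjusted p under 0.05 the limma counts were 27 lower and 2 higher. With the arrays scaled to a common median in place of quantile normalisation, 29 genes were lower and 2 higher. The shares of all genes given above belong to the quantile-normalised fit of all arrays alone. Without the second fNSC array, 16 genes passed in place of 25.

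In pNSC against fNSC the median difference was negative in both subunits. In the large subunit 17 of 34 genes were lower and 1 was higher, with a median of -0.29. In the small subunit 6 of 22 genes were lower and 1 was higher, with a median of -0.24. The small-subunit count of lower genes lies near the 22.3% of all genes that were lower. Genes other than ribosomal protein genes whose mean log2 level was 12 or more, 858 in all, were lower in 18.6% of cases and had a median of 0.014. Among the 12 ribosomal protein genes at a mean log2 level of 15 or more, 2 were lower, against 21 of the 44 dimmer ones. The part of the upper end of the signal range in these counts was not tested.

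Of the 56 genes, 28 were higher in miPS-NSC than in pNSC, a comparison that shares the pNSC arrays with the preceding one. In miPS-NSC against pNSC, 51.6% of all genes passed the test, 24.9% as higher and 26.8% as lower. The 28 higher genes made up 50% of the ribosomal protein genes, 3 were lower and 25 did not pass, with a median log2 difference of 0.28 against -0.028 over all genes. At 2-fold or more 5 were higher, beside 7.64% of all genes. Without the second miPS-NSC array 20 genes passed in place of 31. In miPS-NSC against fNSC, 51.4% of all genes passed, 24.5% as higher and 26.9% as lower, and 6 ribosomal protein genes were higher, 4 were lower and 46 did not pass, with a median of 0.022. The 10 genes that passed became 6 without the first miPS-NSC array, without the first fNSC array or without either MEF array.

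The order of the arrays was also counted, which needs no threshold on a test. Both pNSC arrays lay below all other NSC arrays for 35 of the 56 ribosomal protein genes (62.5%) and for 20.2% of all genes. Both miPS-NSC arrays were the lowest for 3 of them, Rpl21, Rpl30 and Rps27l, against 26.3% of all genes. They were the highest of the NSC arrays for 16 of them (28.6%), against 22.9% of all genes. The fNSC arrays were the lowest for 2 of them, Rpl29 and Rps15a, against 18.8% of all genes. Under median scaling the count for pNSC was 40 of 56, against 17.5% of all genes.

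**Figure D2:**
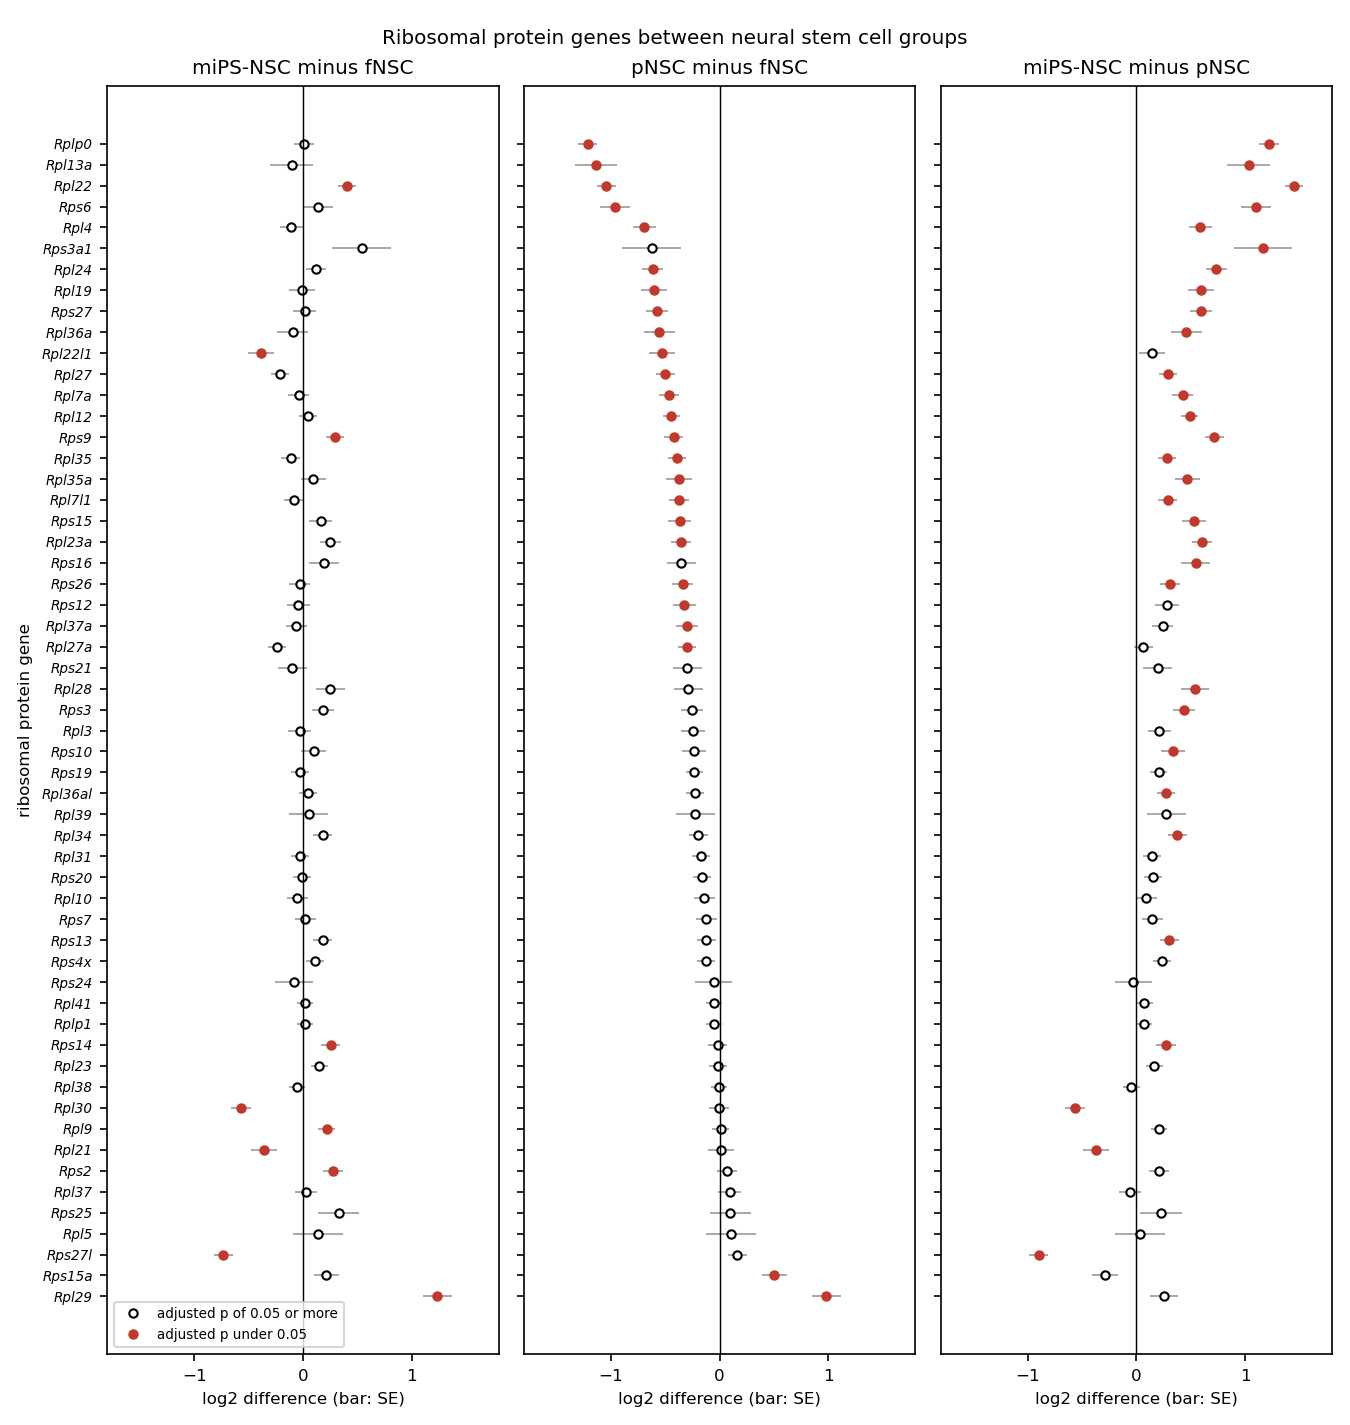
Log2 differences of the 56 ribosomal protein genes in the 3 comparisons among NSC groups, with the limma standard error (SE) as a bar and filled points for an adjusted p under 0.05. In pNSC minus fNSC 23 filled points lie left of 0 and 2 right of it, in miPS-NSC minus pNSC 3 lie left and 28 right, and in miPS-NSC minus fNSC most points lie near 0.

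Promoter sequences are shown for the genes that separated the NSC groups most and for the Rps27 pair, because ribosomal protein promoters are known for short shared motifs near the start. The stretches come from RefSeq (build GRCm38.p6), run 5' to 3' on the strand of the gene, and hold 90 bases before the annotated start and 30 from it on. Capitals mark the ETS core (CGGAAG on either strand), the YY1 core (AAGATGG on either strand) and the pyrimidine run CTTTCC, the last searched on the strand of the gene between 10 bases before and 50 after the start. No motif overlapped another in these stretches, and the first listed start was used where RefSeq lists several.
Rplp0, chr5:115559377-115559496, plus strand: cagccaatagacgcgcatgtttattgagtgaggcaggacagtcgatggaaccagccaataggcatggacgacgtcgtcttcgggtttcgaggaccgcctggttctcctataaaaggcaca
Rpl22, chr4:152325636-152325755, plus strand: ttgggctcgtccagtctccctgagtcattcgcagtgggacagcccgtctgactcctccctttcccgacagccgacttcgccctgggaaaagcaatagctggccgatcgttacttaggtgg
Rpl13a, chr7:45128716-45128835, minus strand: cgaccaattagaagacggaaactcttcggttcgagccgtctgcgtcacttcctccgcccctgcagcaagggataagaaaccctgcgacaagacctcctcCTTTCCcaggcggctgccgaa
Rps6, chr4:86857338-86857457, minus strand: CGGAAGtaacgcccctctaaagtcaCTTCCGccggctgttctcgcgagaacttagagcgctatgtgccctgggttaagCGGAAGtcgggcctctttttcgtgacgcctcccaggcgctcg
Rps3a1, chr3:86142639-86142758, minus strand: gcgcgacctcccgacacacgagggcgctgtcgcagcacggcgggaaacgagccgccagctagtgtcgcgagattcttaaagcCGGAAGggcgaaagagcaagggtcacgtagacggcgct
Rps27, chr3:90213619-90213738, minus strand: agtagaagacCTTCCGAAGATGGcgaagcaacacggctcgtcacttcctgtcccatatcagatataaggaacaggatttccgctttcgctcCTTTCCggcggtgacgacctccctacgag
Rps27l, chr9:66945996-66946115, plus strand: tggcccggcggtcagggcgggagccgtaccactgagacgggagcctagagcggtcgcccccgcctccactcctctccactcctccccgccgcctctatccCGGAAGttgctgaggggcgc

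A RefSeq window of 250 bases before to 50 after the start was on hand for 48 of the 56 genes, and Rpl29 was among the 8 without. The ETS core was in 34 of the 48 windows (70.8%), against 17.2% of the windows of 27025 genes. The YY1 core was in 9 (18.8%), against 6.48%, and the pyrimidine run CTTTCC in 11 (22.9%), against 2.59%. Only these exact letters were searched. A start with other pyrimidines, as in the Rps6 stretch, was not counted, so the share does not tell how many genes start with pyrimidines. The box TATAAA, searched on the strand of the gene from 50 bases before the start up to it, was in 1 window (2.08%), against 2.88%. In the stretches shown, Rps6 holds the ETS core 3 times, Rps27 holds all 3 motifs and Rps27l holds the ETS core alone. Among the 31 genes whose pNSC arrays were the lowest of the NSC arrays, 20 windows held the ETS core and 10 the letters CTTTCC. Among the other 17 genes 14 and 1 did. These are counts of letters near an annotated start, described without a test. The stretches shown for Rplp0 and Rpl22 hold none of the motifs in the positions searched. Farther before the start, the Rpl22 stretch has the letters of the pyrimidine run. After the start, the Rplp0 stretch has those of the TATA box.

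The gene with the lowest value in pNSC against fNSC was Rplp0, which encodes the protein at the base of the ribosomal stalk, where elongation factors bind. Its normalised log2 level was 10.73 and 10.84 on the pNSC arrays, against 11.94 and 12.06 on the fNSC arrays. The miPS-NSC arrays read 12.06 and 11.95, and the MEF arrays 10.81 and 10.85. The values of pNSC and MEF lay together, apart from the overlapping values of miPS-NSC and fNSC. Rplp0 was 2.32-fold lower in pNSC than in fNSC (log2 difference -1.21, SE 0.09, limma adjusted p = 6.44e-05) and 2.33-fold higher in miPS-NSC than in pNSC (limma adjusted p = 4.84e-05). Another Rplp0 probe was detected on both miPS-NSC and both fNSC arrays and on no pNSC or MEF array, at least 1.53-fold lower in pNSC than in fNSC. The partner stalk protein Rplp1 read 15.96 and 15.99 in pNSC and 16.01 and 16.05 in fNSC, and its difference of -0.052 did not pass (limma adjusted p = 0.598).

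Rpl22, a large-subunit protein that also binds a small RNA of Epstein-Barr virus and is dispensable for translation in mice, was low in pNSC as well. It read 13.46 and 13.38 on the miPS-NSC arrays, 11.97 on each pNSC array, and 13.06 and 12.96 on the fNSC arrays. The 3 NSC groups did not overlap, with miPS-NSC on top and pNSC lowest. Rpl22 was 2.06-fold lower in pNSC than in fNSC (log2 difference -1.04, SE 0.083, limma adjusted p = 9.08e-05). In miPS-NSC it was 2.73-fold higher than in pNSC (limma adjusted p = 1.62e-05), the largest difference among the NSC groups when each gene is read by its brightest probe. It was also 0.41 log2 units higher in miPS-NSC than in fNSC (limma adjusted p = 0.0059).

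Rpl13a encodes a large-subunit protein that is often used as a reference gene and that takes part, in human cells, in silencing inflammatory messages. Its levels were 11.15 and 11.28 in pNSC, against 12.32 and 12.38 in fNSC. The miPS-NSC arrays differed from each other at 11.93 and 12.57, and both lay above pNSC. Rpl13a was 2.2-fold lower in pNSC than in fNSC (log2 difference -1.14, SE 0.2, limma adjusted p = 0.00325) and 1.03 log2 units higher in miPS-NSC than in pNSC (limma adjusted p = 0.00398). Its difference between miPS-NSC and fNSC, -0.1, did not pass.

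Rps6 encodes the small-subunit protein that S6 kinases phosphorylate when growth signals arrive. It read 12.73 and 13.12 in pNSC, against 13.98 and 13.8 in fNSC, and 13.97 and 14.08 in miPS-NSC. The pNSC arrays lay below every other array, MEF at 13.42 and 13.49 included. The log2 difference was -0.96 in pNSC against fNSC (SE 0.14, limma adjusted p = 0.00148) and 1.1 in miPS-NSC against pNSC (limma adjusted p = 0.000615).

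Rps3a1, a small-subunit protein, varied more between arrays of a group. It read 11.48 and 11.32 in miPS-NSC, 9.88 and 10.59 in pNSC, and 10.54 and 11.18 in fNSC. The pNSC and fNSC ranges overlapped, while both miPS-NSC arrays lay above all other NSC arrays. It was 1.16 log2 units higher in miPS-NSC than in pNSC (SE 0.27, limma adjusted p = 0.00959), and its difference of -0.62 in pNSC against fNSC did not pass (limma adjusted p = 0.101). That difference of Rps3a1 passed with the authors' processed values (-0.56, limma adjusted p = 0.0344), under median scaling, without background correction, and without the second pNSC or the first fNSC array. Rplp0, Rpl22, Rpl13a, Rps6 and Rps3a1 were the 5 genes past the test and 2-fold between miPS-NSC and pNSC, and without the first pNSC array 2 genes were.

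**Figure D3:**
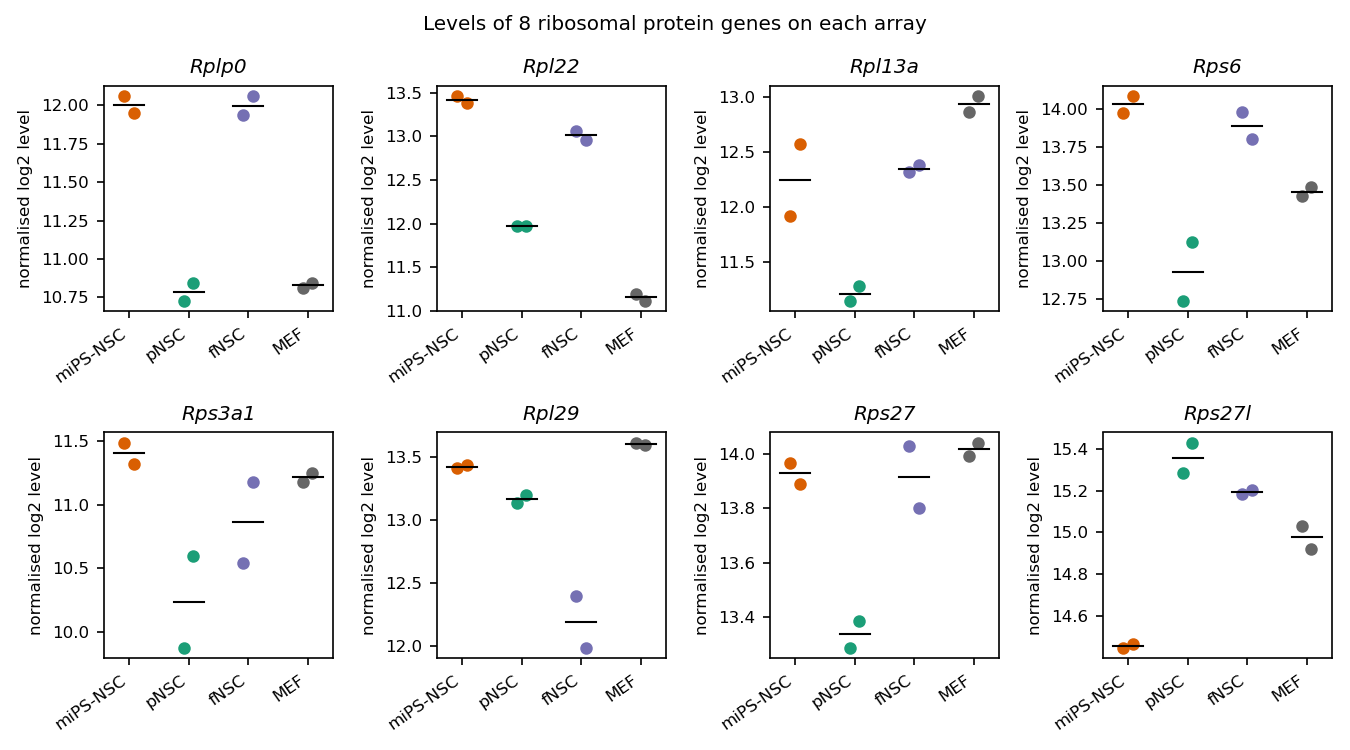
Normalised log2 level of 8 ribosomal protein genes on each array (points), with a line at the mean of each group of 2 arrays and an axis of its own for each gene. Rplp0, Rpl22, Rpl13a, Rps6, Rps3a1 and Rps27 are lowest among NSC groups in pNSC, Rpl29 is lowest in fNSC, and Rps27l is lowest in miPS-NSC.

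Rpl22, Rps6 and Rps20 are the 3 ribosomal protein genes on chromosome 4, and the 490 other genes tested there had a median log2 difference of -0.7 in pNSC against fNSC, with 73.9% of them lower. The median for the rest of chromosome 4 was 0.63 in miPS-NSC against pNSC and -0.045 in miPS-NSC against fNSC. Its part in the values of Rpl22 and Rps6 was not tested. Rps20, a small-subunit protein of the head of the subunit, differed by -0.16 between pNSC and fNSC and did not pass. Without the chromosome 4 genes, an alternative chosen after the data were seen, 21 of 53 ribosomal protein genes were still lower in pNSC than in fNSC and the median was -0.24. The count past the test and 2-fold between miPS-NSC and pNSC was then 3 in place of 5. Rplp0 lies on chromosome 5, Rpl13a on chromosome 7 and Rps3a1 on chromosome 3. Ribosomal protein genes were found on 16 chromosomes in all.

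The other genes that fell in pNSC against fNSC changed less. The next were Rpl4, at 11.99 and 11.89 in pNSC against 12.76 and 12.51 in fNSC (log2 difference -0.7), Rpl24 at -0.62 and Rpl19 at -0.6, all of the large subunit. Each of them was also higher in miPS-NSC than in pNSC, by 0.59, 0.73 and 0.59. Rpl36a fell by 0.55 and Rpl27 fell by 0.5. The differences of the 23 lower genes all lay between -1.21 and -0.3.

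Rpl29 was lowest in fNSC. It encodes a large-subunit protein whose loss leaves mice viable but small. It read 13.41 and 13.43 in miPS-NSC, 13.14 and 13.2 in pNSC, 12.39 and 11.98 in fNSC, and 13.62 and 13.6 in MEF. The fNSC arrays lay below all others. Rpl29 was 2.35-fold higher in miPS-NSC than in fNSC (log2 difference 1.23, SE 0.13, limma adjusted p = 3e-04) and 1.97-fold higher in pNSC than in fNSC (limma adjusted p = 0.00107). It was the only ribosomal protein gene past the test and 2-fold between miPS-NSC and fNSC, where 14.1% of all genes were and 8.5% were as higher. Another Rpl29 probe read 11.31 and 11.38 in miPS-NSC and 10.59 and 10.41 in pNSC, but 5.64 and 5.58 in fNSC, where it was on neither array above detection. That probe was at least 35.1-fold higher in miPS-NSC and at least 19.6-fold higher in pNSC than in fNSC. Both probes of Rpl29 were thus lowest in fNSC among the NSC groups.

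The other genes past the test between miPS-NSC and fNSC were few. Rpl30, a large-subunit protein, read 11.75 and 11.64 in miPS-NSC, 12.34 and 12.2 in pNSC, and 12.33 and 12.21 in fNSC. Its miPS-NSC arrays lay below the overlapping arrays of the other NSC groups, with log2 differences of -0.57 against each of them (limma adjusted p = 0.00204 against fNSC and 0.00194 against pNSC). Rpl21, a large-subunit protein, was 0.36 lower than in fNSC and 0.37 lower than in pNSC on the log2 scale. Without the first miPS-NSC array these differences were -0.19 and -0.2. The call against fNSC was lost when any 1 array other than the second miPS-NSC array was left out, and the call against pNSC without the first miPS-NSC array or without either array of pNSC or MEF. By the brightest probe, Rps9, Rps2, Rps14 and Rpl9 were higher in miPS-NSC than in fNSC by 0.22 to 0.29. The other kept Rps9 probe differed by -0.25 there, and the mean of the kept Rps9 probes by 0.021. Rps9 did not pass without the second miPS-NSC array or without either fNSC array. Rps14 and Rpl9 passed in none of the 8 fits that left out 1 array, and Rps2 passed only without the second fNSC array.

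Rps15a and Rpl29 were the ribosomal protein genes that were higher in pNSC than in fNSC. Rps15a, a small-subunit protein, read 9.98 and 10.03 in pNSC, against 9.46 and 9.56 in fNSC, with 9.72 on each miPS-NSC array. The 3 groups did not overlap, and the difference of 0.5 between pNSC and fNSC passed (limma adjusted p = 0.0114). It missed the threshold without the second pNSC array or without the first fNSC array.

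Several ribosomal proteins have a close copy encoded elsewhere in the genome, and the copies are given side by side. Rps27l, a copy of the small-subunit protein Rps27 and a p53 target in human cells, read 14.45 and 14.47 in miPS-NSC, 15.28 and 15.43 in pNSC, and 15.18 and 15.2 in fNSC. The miPS-NSC arrays lay below all others, MEF at 15.03 and 14.92 included. Rps27l was lower in miPS-NSC by 0.73 log2 units against fNSC (limma adjusted p = 0.000499) and by 0.9 against pNSC (limma adjusted p = 0.000178). Rps27 itself read 13.97 and 13.89 in miPS-NSC, 13.29 and 13.39 in pNSC, and 14.03 and 13.8 in fNSC. It was lower in pNSC than in fNSC (log2 difference -0.58, limma adjusted p = 0.00349), and its difference of 0.014 between miPS-NSC and fNSC did not pass. A test of the difference between the copies was not run.

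Rpl22l1 is the copy of Rpl22, which in mice is known to repress it. It read 7.86 and 8.1 in miPS-NSC, 7.83 on each pNSC array, and 8.29 and 8.44 in fNSC. It was lower than in fNSC by 0.38 in miPS-NSC (limma adjusted p = 0.0319) and by 0.53 in pNSC (limma adjusted p = 0.00986), while Rpl22 was higher in miPS-NSC and lower in pNSC. The call in miPS-NSC was lost without the first miPS-NSC array and without the second fNSC array. The call in pNSC was lost without the second fNSC array.

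Rpl36al, an intronless copy of the X-linked Rpl36a, read 13.76 and 13.87 in pNSC against 14.09 and 13.99 in fNSC, and its difference of -0.23 did not pass. Rpl36a read 12 and 12.4 in pNSC against 12.69 and 12.82 in fNSC, lower by 0.55 (limma adjusted p = 0.0179), a call lost without the first pNSC array or the second fNSC array. Against MEF the copies differed in sign in every NSC group: Rpl36al was higher by 0.49 to 0.77 and Rpl36a lower by 0.89 to 1.45. Rpl7l1, a copy of the large-subunit protein Rpl7, was 0.37 lower in pNSC than in fNSC (limma adjusted p = 0.0142), a call lost without the second pNSC array or without either fNSC array.

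The X chromosome holds 4 of the genes, Rpl10, Rpl36a, Rpl39 and Rps4x. Their median difference in pNSC against fNSC was -0.18, with 1 of the 4 lower, while the 265 other X-linked genes had a median of 0.049. In miPS-NSC against fNSC none of the 4 passed the limma test or had an unadjusted p under 0.05, and the differences ran between -0.094 and 0.11. Rpl5, which with Rpl11 carries the 5S RNA and binds MDM2, read 13.15 and 13.67 in miPS-NSC, 13.43 and 13.32 in pNSC, and 13.57 and 12.97 in fNSC. Its groups overlapped, and none of its differences among NSC groups passed.

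By the brightest probe, the least variable genes across the 4 groups were Rplp1, Rpl38, Rpl23, Rpl41 and Rpl10. The group means of their brightest probes spanned 0.087, 0.21, 0.22, 0.24 and 0.26 log2 units. Other kept probes of Rpl23 and Rpl38 varied more. That of Rpl23 which varied most had a mean of 13.54 in fNSC and 15.87 in MEF, and the other of Rpl38 was 0.58 higher in miPS-NSC than in fNSC. The brightest probe of each least variable gene has a mean level of 14.89 or more. That is near the top of the scale, where the normalised values of different arrays can coincide. The median bead error of the ribosomal protein probes was 5.03% to 6.18% of the signal on NSC arrays and 2.53% to 3.04% on MEF arrays.

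Against MEF, the ribosomal protein genes went in both directions. In miPS-NSC 27 were higher and 10 lower, in a comparison where 78.3% of all genes passed. In pNSC 17 were higher and 25 lower, where 79.4% passed, and in fNSC 27 were higher and 13 lower, where 79.7% passed. The shares of all genes that were lower were 31.9%, 32.7% and 32%, and those higher 46.3%, 46.7% and 47.7%. At 2-fold or more 7 genes were higher and 2 lower in miPS-NSC, 3 and 6 in pNSC, and 8 and 2 in fNSC, where 42%, 43.4% and 43.1% of all genes passed, with 24.8%, 25.8% and 25.9% as higher and 17.2%, 17.6% and 17.2% as lower. The medians were 0.2, -0.13 and 0.22, while those of all genes were 0.22, 0.21 and 0.24. With the authors' processed values the medians of all genes were 0.061, 0.058 and 0.073, so small differences from MEF are best read relative to this shift. All 6 NSC arrays lay above both MEF arrays for 21 of the 56 genes (37.5%), against 41.5% of all genes, and below both for 19 (33.9%), against 27.7%. The 3 comparisons share the MEF arrays.

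**Figure D4:**
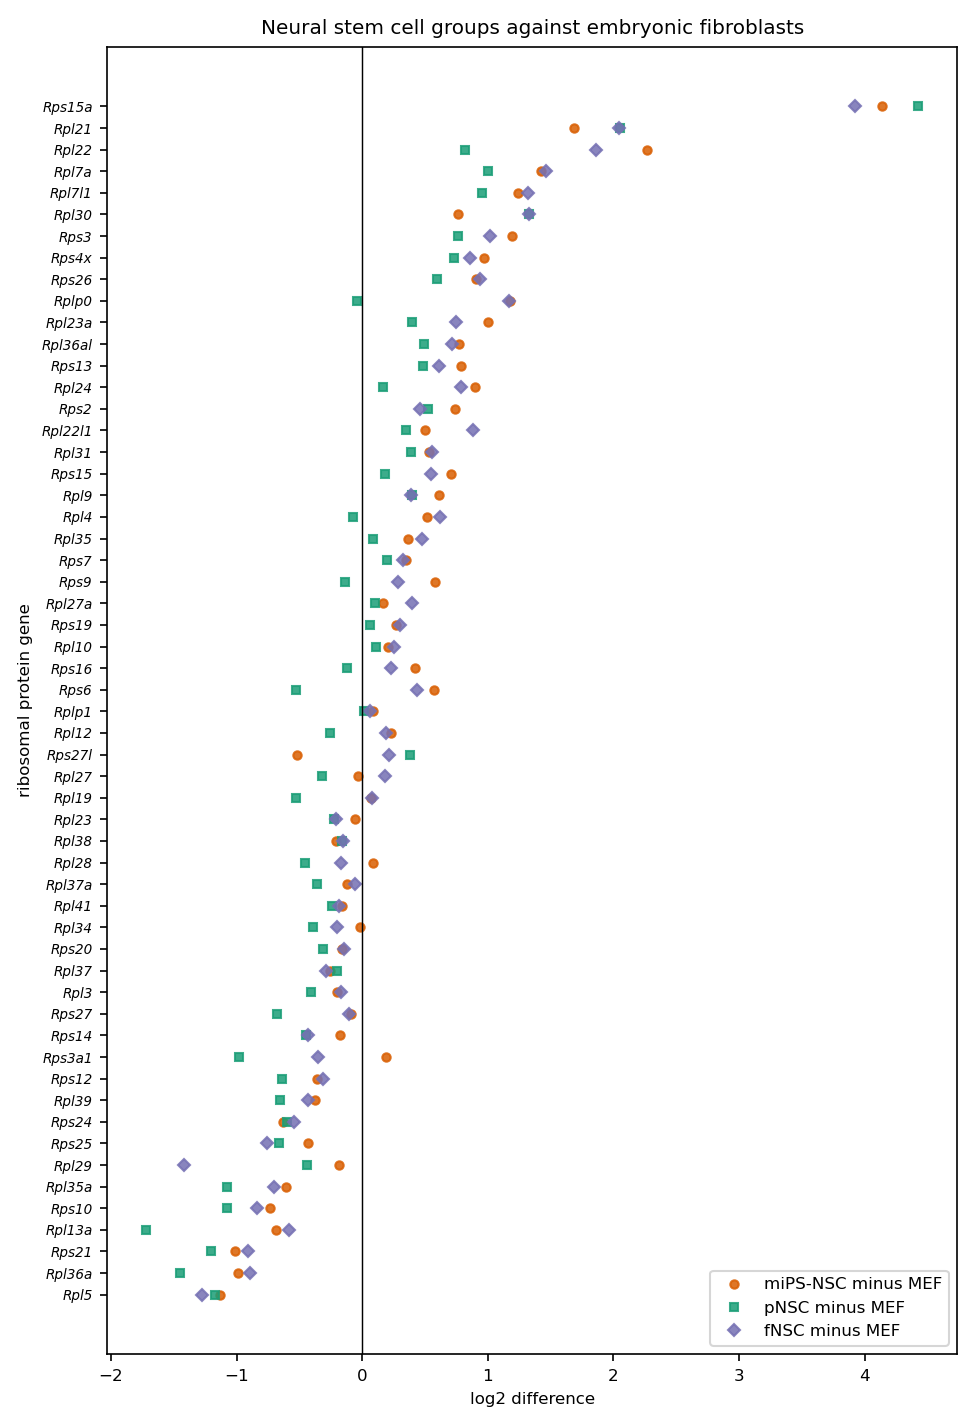
Log2 difference of each NSC group from MEF for the 56 ribosomal protein genes, with genes sorted by their mean difference. The points of Rps15a lie between 3.92 and 4.43, and apart from Rpl21, Rpl22 and Rpl13a the other genes lie within 1.5 of 0.

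Rps15a differed most from MEF. It read 9.72 on each miPS-NSC array, 9.98 and 10.03 in pNSC, and 9.46 and 9.56 in fNSC, while the MEF arrays read 5.74 and 5.42 and were not above detection. It was at least 11.1-fold higher in miPS-NSC, at least 13.6-fold higher in pNSC and at least 9.59-fold higher in fNSC than in MEF (limma adjusted p between 8.83e-08 and 1.42e-07). This gene passed the filter through the NSC groups, in which it is high. Rps15a has no other named probe, so whether the whole gene or the stretch under that probe differed was not tested.

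Rpl21, Rpl22, Rpl7a, Rpl7l1, Rps3 and Rpl30 were the other genes that stood highest in NSCs against MEF. Rpl21 read 8.26 and 8.6 in miPS-NSC, 8.83 and 8.77 in pNSC, and 8.74 and 8.84 in fNSC, against 6.78 and 6.71 in MEF. Its log2 differences were 1.68, 2.06 and 2.04, and another Rpl21 probe, detected on 1 of the 2 MEF arrays, was at least 3.72-fold higher in miPS-NSC, 4.68-fold in pNSC and 5.03-fold in fNSC. Rpl22 was higher by 2.27 in miPS-NSC, 0.82 in pNSC and 1.86 in fNSC than the 11.2 and 11.11 read in MEF. For Rps3, a small-subunit protein that also has a part in DNA repair, the differences were 1.2, 0.76 and 1.02. Rpl7a, a large-subunit protein, was higher by 1.42, 0.999 and 1.46.

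Rpl5, Rps21, Rpl36a, Rpl13a, Rps10 and Rpl35a were lower in NSCs than in MEF. Rpl5 read 13.15 and 13.67 in miPS-NSC, 13.43 and 13.32 in pNSC, and 13.57 and 12.97 in fNSC, against 14.49 and 14.6 in MEF. Both MEF arrays lay above all NSC arrays, with log2 differences of -1.13 in miPS-NSC, -1.17 in pNSC and -1.27 in fNSC (limma adjusted p between 0.00152 and 0.00285). Rps21, a small-subunit protein, differed by -1.01, -1.21 and -0.91. Rpl13a differed by -0.69, -1.72 and -0.59, so pNSC lay farthest from MEF. Rplp0 stood at 1.18 in miPS-NSC and 1.17 in fNSC, while its difference of -0.044 in pNSC did not pass (limma adjusted p = 0.67).

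More than 1 kept probe was available for 11 of the genes, and for 5 of them the probes differed in sign with a gap of 2-fold or more in at least 1 comparison. These were Rpl23, Rpl29, Rpl7l1, Rps24 and Rps9. The brightest probe of Rps9, a small-subunit protein, was 0.58 higher in miPS-NSC than in MEF, while its other probe was 1.45 lower on the log2 scale. The brightest probe of Rps24, a small-subunit protein whose messenger RNA is spliced in several ways at its end, was 0.63 lower in miPS-NSC than in MEF, and its other probe 1.86 higher. For Rpl7l1 the values were 1.24 and -2.3, with the other probe below detection in all NSC groups. For Rpl23, a large-subunit protein that can bind MDM2, the brightest probe differed by -0.056 and the others by -1.37 and 0.46. The probes agreed in sign for Rpl29 in fNSC, at -1.42 and -4.64, the second from a probe not detected in fNSC, and for Rpl23 and Rps9 in pNSC. Among NSC groups, the other Rps24 probe was 2.21-fold higher in miPS-NSC than in pNSC, while the brightest differed by -0.028 on the log2 scale. The Rpl23 probes ran between -0.37 and 0.58 in pNSC against fNSC. Ribosomal protein genes also have many processed pseudogenes, and a probe may read them or a close copy too, which was not tested.

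**Figure D5:**
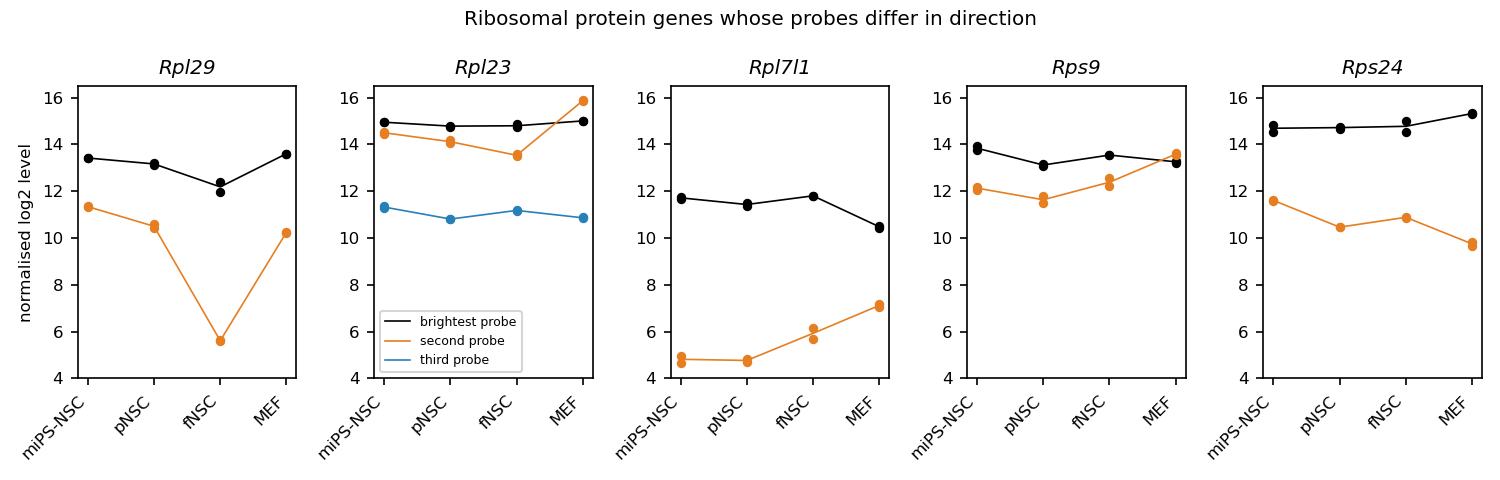
Normalised log2 level of each kept probe of Rpl29, Rpl23, Rpl7l1, Rps9 and Rps24 by group, with points for the arrays and lines through group means. The second Rpl29 probe has a mean of 5.61 in fNSC, and the probes of Rps9 and of Rps24 differ in direction between miPS-NSC and MEF.

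Genes that work with the ribosomal proteins were examined as lists. Of 21 measured translation genes with pyrimidine-run messages, 8 were lower in pNSC than in fNSC and 0 were higher by limma, with a median of -0.32 and all 21 differences negative, beside 22.3% lower and 22.7% higher among all genes. At an unadjusted p under 0.05 the limma counts were 12 lower and 0 higher. Of the 21, Eef1a1 was detected on neither pNSC array. Tpt1 lay near the lowest detected signal, with means of 6.49 in pNSC and 6.74 in fNSC, so the signs of both say little. Fau, the precursor of a small-subunit protein fused to a ubiquitin-like protein, read 13.39 and 13.32 in pNSC against 14.39 and 14.54 in fNSC, with a log2 difference of -1.11. Eif4b, an initiation factor that S6 kinases phosphorylate, differed by -1.09, and Eef2, Pabpc1 and Hnrnpa1 by -0.59, -0.61 and -0.7. In miPS-NSC against pNSC 8 of the 21 were higher, beside 24.9% of all genes, and 1, Eif2s3x, was lower. Eif4b was highest there, at 8.79 and 9.3 in miPS-NSC against 6.68 and 7.38 in pNSC.

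Of 35 measured ribosome assembly factors, 22 were lower and 3 were higher in miPS-NSC than in fNSC (62.9% lower, against 26.9% of all genes), and few ribosomal protein genes passed in that comparison. Rrp12, a factor of small-subunit export, was 3.66-fold lower, Bop1 3.1-fold, Pes1, its partner in large-subunit maturation, 2.85-fold and Pno1 2.27-fold. Against pNSC 13 were lower and 6 higher in miPS-NSC, beside 26.8% and 24.9% of all genes, with Ltv1 2.17-fold lower. In pNSC against fNSC 13 were lower and 0 were higher by limma, with 17 and 1 at an unadjusted p under 0.05, beside 22.3% and 22.7% of all genes. The 2 that were lower 2-fold, Mrto4 (log2 difference -1.4) and Ebna1bp2 (-1.13), lie on chromosome 4. Of 8 measured RNA polymerase I genes, 6 were lower in pNSC than in fNSC (75%, beside 22.3% of all genes), led by Twistnb at -1.34 and by Polr1e at -1.12, which also lies on chromosome 4. In miPS-NSC against fNSC 4 of the 8 were lower and 0 were higher (50% lower, beside 26.9% of all genes). Against pNSC 4 were higher and 1 was lower in miPS-NSC (50% and 12.5%, beside 24.9% and 26.8%). Of 13 proliferation genes, 12 were lower in miPS-NSC than in fNSC (92.3%, beside 26.9% of all genes), with Rrm2 2.7-fold and Mcm3 2.23-fold lower. In pNSC against fNSC 6 of them were higher (46.2%, beside 22.7%) and 1, Cdc20 on chromosome 4, was lower by 2.35-fold. In miPS-NSC against pNSC 10 were lower (76.9%, beside 26.8%), with Rrm2, Mcm3, Mcm6 and Mcm4 2.11-fold to 4.39-fold lower. The part of these in the ribosomal protein values was not tested.

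Among the regulators, Myc was 2.88-fold higher in miPS-NSC than in fNSC and 3.15-fold higher than in pNSC, and its difference between pNSC and fNSC did not pass. Of the MYC antagonists, Mxd4 was higher in miPS-NSC too, 3.15-fold against fNSC and 2.03-fold against pNSC, and Mxi1 1.82-fold and 2.8-fold. Mxd3 passed in neither comparison, with log2 differences of -0.37 and 0.11. Of 7 measured MYC network genes, 3 were higher and 2 lower in miPS-NSC than in fNSC (42.9% and 28.6%, beside 24.5% and 26.9% of all genes). Against pNSC 4 were higher and 0 lower (57.1% higher, beside 24.9% of all genes). Mycl, a relative of Myc on chromosome 4, was 2.72-fold lower in pNSC than in fNSC. Eif4ebp1, the translation brake that mTORC1 releases, was 2.39-fold higher in miPS-NSC than in fNSC and 3.21-fold higher than in pNSC. Of 11 measured mTORC1 and S6 kinase genes, 3 were lower and 0 higher in pNSC than in fNSC by limma, with 5 and 0 at an unadjusted p under 0.05, and 27.3% lower stands near the 22.3% of all genes. In miPS-NSC against fNSC 5 were higher and 3 lower (45.5% and 27.3%, beside 24.5% and 26.9% of all genes). Tsc1, an mTORC1 inhibitor, was at least 2.26-fold higher in miPS-NSC than in pNSC, where 1 array detected it. Of 7 measured genes tied to ribosomal protein dosage and p53, 5 were lower and 2 higher in miPS-NSC than in fNSC (71.4% and 28.6%, beside 26.9% and 24.5% of all genes). Ccng1 was 6.99-fold lower, Cdkn1a 3.5-fold lower and Phlda3 at least 12.4-fold lower, all of them p53 targets. Bbc3, of the same list, was higher instead, by 0.28 log2 units (limma adjusted p = 0.0268). The relation of these genes to the lower Rps27l on the same arrays was not tested. Cdkn2a, an inhibitor of the cell cycle that lies on chromosome 4, was 4.06-fold higher in miPS-NSC than in fNSC. It was at least 6.14-fold lower in pNSC than in fNSC, and 1 pNSC array detected it.

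Markers of other cell types moved with the NSC groups too. The summed linear level of 7 astrocyte markers was 58860 to 65720 in miPS-NSC, 71200 to 73100 in pNSC and 41150 to 41570 in fNSC, with Gfap and Aldh1l1 undetected in miPS-NSC and Gfap and Apoe undetected in fNSC. Of the 6 tested, 4 were higher in pNSC than in fNSC and 1, Slc1a2, was lower (log2 difference -0.71). The summed level of 6 neuron markers was 15950 to 17110 in miPS-NSC, 6880 to 7077 in pNSC and 6281 to 7083 in fNSC. Of the 5 tested, 4 were higher in miPS-NSC than in pNSC and 1, Syp, was 2.11-fold lower. Eno2 had mean log2 levels of 12.84 in miPS-NSC, 9.94 in pNSC and 6.5 in fNSC. The 3 oligodendrocyte markers summed to 26420 to 29360, 40510 to 43810 and 36050 to 37070 in the same order. Olig1 was the brightest of the 3 in each NSC group, at mean log2 levels of 14.76, 15.29 and 15.15. Among the 3 markers Pdgfra was at least 25.9-fold higher in pNSC than in fNSC, where neither array detected it. The 3 pluripotency markers summed to 1404 to 1501, 1347 to 1426 and 920.4 to 961.1. Esrrb was the brightest of the 3 in each NSC group, at mean log2 levels of 10.29, 10.29 and 9.67. All 3 were detected on both miPS-NSC arrays, with Pou5f1 at a mean of 6.83 and Dppa5a at 6.36. Pou5f1 was detected on neither pNSC array and Dppa5a on neither fNSC array. In miPS-NSC against fNSC all 3 were higher by limma, beside 24.5% of all genes, and 0 were so by 2-fold. The part of these cell types in the ribosomal protein values was not tested.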

How the data were processed

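Per the file headers, the deposited signal table gives for each probe and array a mean bead intensity, a detection p-value and a bead standard error (signal units). It appears neither background-subtracted nor normalised, and the submitters' processing notes name GenomeStudio 2009.2. The deposited series table holds the authors' log2 values of 12421 probes, quantile-normalised as their equal quantiles show, and was used as an alternative. The steps before it are not given in the sources used here.

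Intensities were corrected with neqc of limma 3.58.1 (R 4.3.3), which fits the background from detection p-values, adds an offset of 16 and normalises quantiles. A probe was kept where both arrays of any group had a detection p under 0.01 (12478 probes, 8107 named genes, brightest probe per gene). All 8 arrays entered lmFit and eBayes (4 residual and 2.98 prior degrees of freedom), with two-sided p-values adjusted by Benjamini-Hochberg over 8107 genes. A gene passed at an adjusted p under 0.05, and a second count also asked for 2-fold. "At least" folds set the bright group against the higher of the lowest detected signal and the dim probe's own value, array by array. The fit was tested on simulated data. Names come from the platform annotation, chromosomes from RefSeq (GRCm38.p6). That annotation gives 1 symbol to 11692 probes, and the other probes are unnamed here.

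Named genes are those past the test and 2-fold among NSC groups, the 3 most positive and 3 most negative per comparison, close copies, stalk and 5S particle proteins, Rps6, Rpl23, genes on chromosomes X, 4 and 19, the 5 least variable, and those with disagreeing probes. Rpl4, Rpl7a, Rpl9, Rpl19, Rpl24, Rpl27, Rpl35a, Rps2, Rps3, Rps10, Rps14, Eef2, Pabpc1, Hnrnpa1 and Eif2s3x fall outside this rule and were named after their values were seen. Of the other pathway lists, at most 4 genes a comparison among NSC groups that were past the test and 2-fold were named; markers are mainly given as sums. The genes and lists were chosen with earlier results of these data known. The second arrays' deviations from the first correlated at -0.002 to 0.071 between groups, and at -0.158 to 0.264 over the ribosomal protein genes (0.264 for pNSC and fNSC), so replicate numbers were not taken as pairs. The number of arrays limits the precision. Figures were drawn with matplotlib 3.10.9.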

Additional observations from a re-analysis of the deposited data

How the results depend on the processing

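Of the 18 counts and medians given for the ribosomal protein genes, each count stayed within 1.5 times its reported value, and each median within the spread between arrays of a group, with the authors' processed values, with no background correction, with the mean of all kept probes, with no detection filter, and without the 12 brightest genes (the last chosen after the data were seen). With median scaling the count in miPS-NSC against fNSC was 5, and the medians were -0.37 in pNSC against fNSC, 0.35 in miPS-NSC against pNSC, 0.31 in miPS-NSC against MEF and 0.32 in fNSC against MEF. A fit to the 4 arrays of miPS-NSC and fNSC alone gave 4. Without the chromosome 4 genes, 3 passed at 2-fold in miPS-NSC against pNSC. Leaving out each array in turn gave 6 to 7 genes in miPS-NSC against fNSC, 16 to 24 in pNSC against fNSC and 20 to 31 in miPS-NSC against pNSC, with 2 to 5 of the last at 2-fold. The lowest of these counts came without the second fNSC array for pNSC against fNSC, and without the second miPS-NSC array for miPS-NSC against pNSC. A lone array was then assumed to vary like the other groups.

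The labels give the arrays no shared source, and the deviations of same-numbered arrays correlated at 0.071 or less over all genes, though at 0.264 over the ribosomal protein genes of pNSC and fNSC. With the replicate number as a block, 7 genes passed in miPS-NSC against fNSC, 22 in pNSC against fNSC and 29 in miPS-NSC against pNSC.

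Signs turned in 20 of the single-gene values. With the mean of all kept probes, Rpl29 was 0.46 in miPS-NSC against MEF, and Rpl38 was 0.26 against fNSC, 0.23 against pNSC and 0.15 against MEF in miPS-NSC. Against MEF, Rpl7l1 was -0.53 in miPS-NSC and -0.70 in pNSC, and Rps9 was -0.43 in miPS-NSC and -0.46 in fNSC. Rps24 was 0.32 against fNSC, 0.56 against pNSC and 0.61 against MEF in miPS-NSC, and 0.056 in pNSC and 0.29 in fNSC against MEF. With median scaling, the values against MEF in miPS-NSC, pNSC and fNSC were 0.46, 0.25 and 0.47 for Rpl41 and 0.44, 0.16 and 0.49 for Rps20, and Rpl38 was 0.28 in miPS-NSC. Averaging several probes turned the first set by construction, and the cause of the second was not tested. A further 125 single-gene values lost the threshold, 59 gained it and 2226 did neither.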
